A study of Homo sapiens with 3 samples.

Results

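The genes described here encode 10 transcription factors of the AP-1 and immediate early class: FOS, FOSB, FOSL1, FOSL2, JUN, JUNB, JUND, ATF3, EGR1 and MYC. They were taken by gene symbol from a count table of 26485 genes, and all 10 were found in it. The table covers total RNA of HEC1B, an established human endometrial cancer cell line, 48 h after siRNA. Knockdown of PRMT6, whose product methylates arginines of histones among other substrates, was represented by 2 libraries made with different siRNAs, siPRMT6-1 and siPRMT6-2. The reference was 1 library of the same line with the control siRNA siNC, labelled WT. Each siRNA had 1 library, no label says whether the cultures were separate, and the members were selected on their counts in these same 3 libraries, since they were proposed with those results in view. Values of the members are therefore given as a description, without a test of their own. The labels do not say how the siRNAs were delivered.

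AP-1 is a dimer of basic leucine zipper proteins. FOS proteins cannot form stable dimers with themselves and pair with JUN proteins, which can also dimerise with each other, and the dimers bind the TPA response element. Many of these genes are immediate early genes, transcribed within minutes of growth factor, cytokine or stress signals through MAP kinases and pre-existing factors such as SRF, and their mRNAs are short-lived. In epithelial cancers, endometrial cancer included, AP-1 and MYC are known for their links to proliferation and invasion.

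Promoter sequence from RefSeq (GRCh38.p14, 250 bases before to 50 after a start site) was at hand for 8 members, with 9 promoters, since ATF3 has 2. None is printed for FOSL1 and MYC. The EGR1 and JUNB promoters are shown because these genes stood at opposite ends in the siPRMT6-2 library, with EGR1 the only member below siNC and JUNB the member farthest above it. Each stretch covers the 150 bases before the start site, on the plus strand, and lies outside the exons of the deposited gene models. Capitals mark the CArG boxes, which bind SRF, in EGR1 and the TATA motif TATAAA in JUNB.
EGR1, chr5:138465329-138465478: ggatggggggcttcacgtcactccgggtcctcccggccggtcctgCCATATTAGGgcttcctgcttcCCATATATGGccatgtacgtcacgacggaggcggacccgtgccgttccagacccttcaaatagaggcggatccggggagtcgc
JUNB, chr19:12791336-12791485: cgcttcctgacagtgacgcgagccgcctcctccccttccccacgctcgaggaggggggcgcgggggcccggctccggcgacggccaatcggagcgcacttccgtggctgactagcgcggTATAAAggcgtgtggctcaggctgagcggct

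Searched on both strands, the CArG box was found in 1.29% of 35116 promoters of this length. Among the 8 members searched it was in EGR1 alone, with first bases at −105 and −83 relative to the start site. Sites farther than 250 bases before a start lie outside this search. TATAAA was in 11.5% of all promoters and in those of FOS, FOSB, JUNB and 1 of the 2 of ATF3. The sites at which AP-1 and ATF dimers are known to bind are shown next, as windows of 30 bases with the motif in capitals, because they are the letters by which these factors can act on their own genes. The TPA response element TGACTCA was in 4.95% of all promoters and in that of FOSL2, from base 5 counted from the RefSeq start site. The cyclic AMP response element TGACGTCA was in 1.85% of all promoters and in that of JUND, at −200. The variant TGACATCA, long known from the JUN promoter and added to the search after the sequences were read, was in 2.61% of all promoters and in those of JUN and ATF3, at −67 and −123. The motif of interferon-stimulated genes, searched as TTTCNNTTTC, was in 3.57% of all promoters and in none of these 9.
FOSL2, chr2:28392851-28392880, plus strand: tgccattgtagTGACTCAtctcgggcagag
JUND, chr19:18281804-18281833, minus strand: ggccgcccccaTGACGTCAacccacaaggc
JUN, chr1:58784096-58784125, minus strand: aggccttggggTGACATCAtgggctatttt
ATF3, chr1:212565273-212565302, plus strand: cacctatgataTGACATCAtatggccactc
A match describes these letters in this window, and no binding was measured. Positions refer to the RefSeq start sites, which differ from the deposited gene models: the FOSL2 window lies before the deposited start of FOSL2, and the JUN motif overlaps the deposited JUN gene.

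The libraries held 381628 counts with siPRMT6-1, 362080 with siPRMT6-2 and 410916 with siNC, so members had between 4 and 153 counts in a library and counting error was large. PRMT6 itself had 4 and 7 counts in the knockdown libraries, against 25 in siNC. Of 10 epithelial markers 8 had any count, and they summed to 890 and 1111 counts in the knockdown libraries, against 1632 in siNC. KRT8 held 681 and 770 of these, against 1329 in siNC, PAX8 had 117 and 227, against 158, and CDH1 and KRT19 were at 0 in all 3. Of 8 leukocyte markers 3 had any count, and they summed to 21 and 57, against 18 in siNC. CD68 held 19 and 56 of these knockdown counts and 17 of those in siNC, and PTPRC, the defining leukocyte gene, was at 0 throughout. The siPRMT6-2 library stood apart by its interferon-stimulated genes: 42 of them summed to 354 and 3301 counts in siPRMT6-1 and siPRMT6-2, against 268 in siNC. Their part in the results below was not tested.

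Strand limits what a member's count stands for. The labels name a stranded kit and the file header a strand setting of 1. Of 142 genes named as the antisense of another gene, 118 nevertheless outnumbered that other gene in the siNC counts. VIM-AS1 had 9718 and 14307 counts in the knockdown libraries and 12493 in siNC, against 291, 392 and 312 for the abundant mRNA of VIM. None of the members overlaps, in exons, a gene on the other strand in the deposited gene models. In GENCODE release 29 the opposite-strand gene HOOK2 covers 259 exonic bases of JUNB, and it had 5 and 1 counts in the knockdown libraries and 2 in siNC. ERCC1, with 537 and 726 counts in the knockdown libraries and 1224 in siNC, spans FOSB without sharing exon bases. FLJ31356 overlaps FOSL2 in the same way and had at most 3 counts. The antisense-named genes read as they would if the strand opposite to the transcripts had been counted. Had that been so in all genes, the counts of all 10 members would not be levels of their mRNAs. The same would hold for HOOK2, ERCC1 and FLJ31356. Which strand each member's count stands for is uncertain and was not tested.

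Among the FOS proteins, FOSL2 was above siNC in both knockdown libraries and FOSL1 was on opposite sides of siNC in the 2. FOSL2, or FRA-2 (hg38 chromosome 2, 28392912 to 28414649, plus strand), encodes a FOS family subunit without the strong transactivation domain of FOS. It had 51 counts with siPRMT6-1 (95% exact Poisson interval 38.0 to 67.1) and 78 with siPRMT6-2 (61.7 to 97.3), against 30 with siNC (20.2 to 42.8). Scaled to TMM-adjusted library size (CPM, a count relative to the library's total), siPRMT6-1 had 1.77 times the siNC level, with a 95% exact binomial interval of 1.11 to 2.88. In siPRMT6-2 the ratio was 3.04 (1.97 to 4.80). In these bulk libraries more cells expressing a gene and more RNA per cell cannot be told apart. It was the only member whose interval lay above 1 in both libraries, as it did for 1.25% of the 6803 genes kept by the filter on low counts.

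FOSL1, or FRA-1 (chromosome 11, 65892136 to 65900526, minus strand), is the FOS family subunit most tied to ERK signalling and to invasive carcinoma cells. It had 68 counts with siPRMT6-1 and 153 with siPRMT6-2, against 124 with siNC. The ratios to siNC were 0.571 (0.418 to 0.773) for siPRMT6-1 and 1.44 (1.13 to 1.84) for siPRMT6-2, so the 2 knockdown libraries lay on either side of the control. Between them the ratio of siPRMT6-2 to siPRMT6-1 was 2.53 (1.89 to 3.41). The gene CCDC85B, 501 bases away on the other strand, had 293 and 369 counts in the knockdown libraries and 408 in siNC, or 0.747 and 1.06 times siNC.

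FOS (chromosome 14, 75278778 to 75282234, plus strand), the founding member and a classic SRF target, had 31 and 44 counts in the knockdown libraries, against 30 in siNC. The ratios were 1.08 (0.630 to 1.84) and 1.71 (1.05 to 2.82). FOSB (chromosome 19, 45467995 to 45475179, plus strand), whose shorter splice form is a long-lived protein in neurons, had 83 and 120 counts, against 80 in siNC. Its ratios were 1.08 (0.785 to 1.49) and 1.75 (1.31 to 2.36). Both genes were thus level with siNC at this depth in the siPRMT6-1 library and above it in the siPRMT6-2 library.

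Among the JUN proteins, JUNB was the farthest from siNC, in the siPRMT6-2 library. JUNB (chromosome 19, 12791496 to 12793311, plus strand) encodes a JUN subunit that can restrain JUN activity and is also induced by cytokines through STAT3. It had 21 counts with siPRMT6-1 and 47 with siPRMT6-2, against 16 with siNC. The ratio was 1.37 with siPRMT6-1 (0.679 to 2.80) and 3.43 with siPRMT6-2 (1.91 to 6.49), and the 2 knockdown libraries differed 2.51 times (1.47 to 4.43).

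JUN (chromosome 1, 58780791 to 58784113, minus strand), the target of JNK kinases and the strongest activator of the family, had 65 and 88 counts in the knockdown libraries, against 79 in siNC. Its ratios were 0.856 (0.607 to 1.20) and 1.30 (0.950 to 1.79), both intervals including 1. JUND (chromosome 19, 18279694 to 18281656, minus strand) is the subunit that is expressed steadily rather than induced. It had 45 and 39 counts, against 29 in siNC, with ratios of 1.61 (0.991 to 2.67) and 1.57 (0.947 to 2.64). JUND was the member with the closest values in the 2 knockdown libraries, at a ratio of 0.973 (0.617 to 1.53).

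The other members were below or near siNC with siPRMT6-1. EGR1 (chromosome 5, 138465492 to 138469315, plus strand), the zinc finger factor whose CArG boxes are printed above, had 69 and 85 counts in the knockdown libraries, against 104 in siNC. Its ratios were 0.690 (0.502 to 0.945) and 0.955 (0.709 to 1.28). MYC (chromosome 8, 127736069 to 127741434, plus strand), the growth-promoting partner of MAX, had 34 and 64 counts, against 48 in siNC. Its ratios were 0.737 (0.461 to 1.17) and 1.56 (1.06 to 2.32), and siPRMT6-2 was 2.11 times siPRMT6-1 (1.37 to 3.31). ATF3 (chromosome 1, 212565334 to 212620777, plus strand), a stress-induced repressor that also pairs with JUN proteins, had 4 and 12 counts, against 6 in siNC. With ratios of 0.694 (0.144 to 2.93) and 2.34 (0.812 to 7.59), no difference of ATF3 from siNC was detectable.

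**Figure D1:**
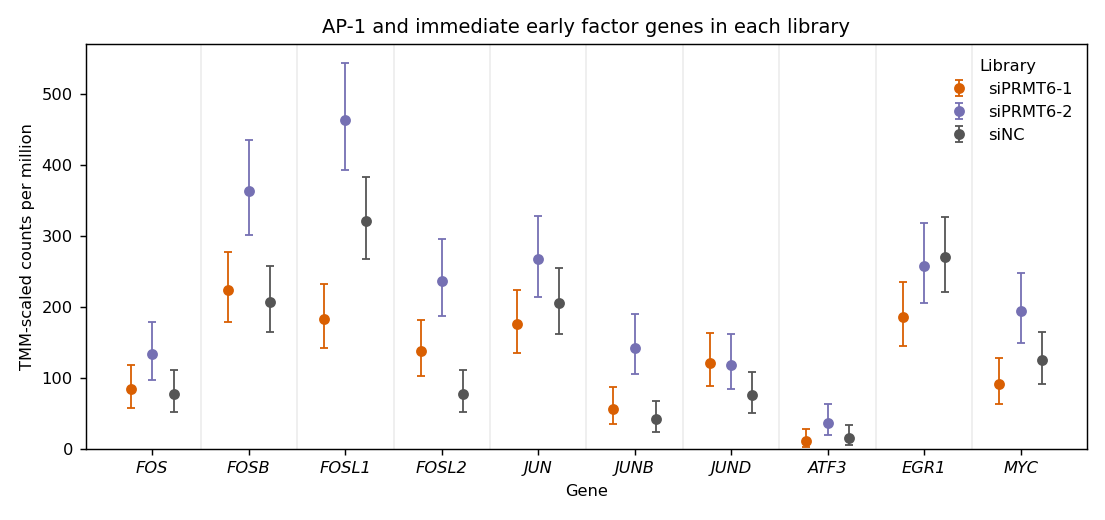
TMM-scaled CPM (y axis) of the 10 genes (x axis) in the siPRMT6-1, siPRMT6-2 and siNC libraries, 1 library each, with 95% exact Poisson intervals as bars (counting error only). The intervals of FOSB, FOSL1, FOSL2 and JUNB in siPRMT6-2 lie clear of and above siNC, FOSL1 in siPRMT6-1 lies below both other libraries, and ATF3 is lowest in all 3. How often such intervals lie apart over all genes kept was not counted.

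**Figure D2:**
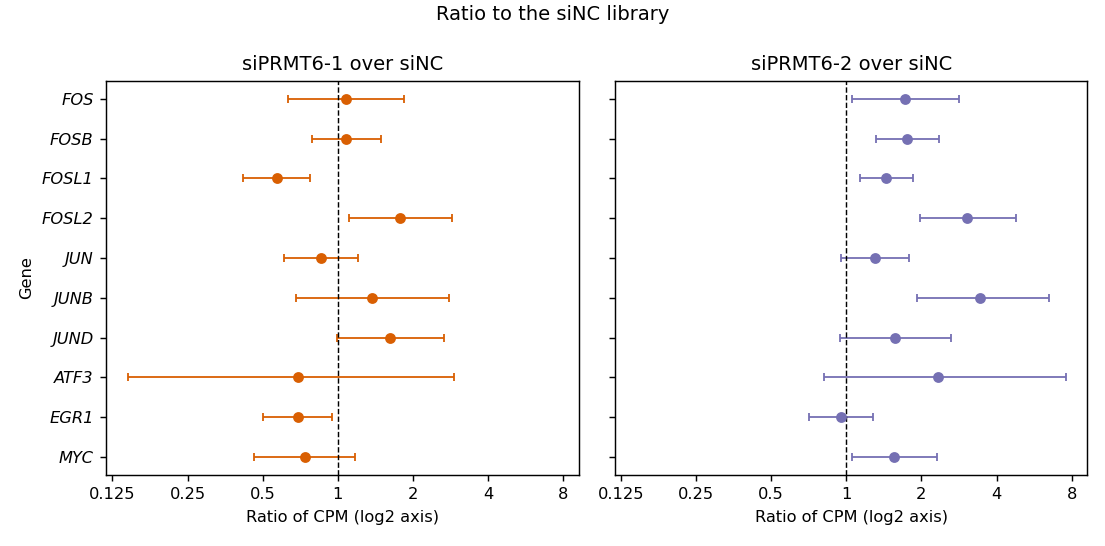
CPM ratio to the siNC library on a log2 axis for siPRMT6-1 (left) and siPRMT6-2 (right), with 95% exact binomial intervals (counting error only). Both panels share the siNC library. The siPRMT6-1 ratios scatter around 1 from 0.571 (FOSL1) to 1.77 (FOSL2), while 9 of 10 siPRMT6-2 ratios are above 1.

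Counted over the members, 5 had a log2 difference above 0 with siPRMT6-1 and 9 with siPRMT6-2, where 50.4% and 50.9% of all genes kept did. The other 5 and 1 were below 0, where 49.3% and 49.1% of all genes kept were. The same 5 genes, FOS, FOSB, FOSL2, JUNB and JUND, were above siNC with both siRNAs, against 31.3% of all genes kept. EGR1 was the only member below siNC with both, against 30.1%. A fold of 2 or more, taken on the log2 CPM scale with a prior count of 2, was reached with siPRMT6-2 by FOSL2 and JUNB, against 8.16% of all genes kept, and by no member with siPRMT6-1 in either direction (4.89% higher and 4.38% lower). No member was lower by that fold with siPRMT6-2 (5.38%), and none passed it with both siRNAs (1.84% higher and 0.75% lower). The interval of the ratio lay above 1 with siPRMT6-2 for 6 members, FOS, FOSB, FOSL1, FOSL2, JUNB and MYC, against 9.73% of all genes kept. With siPRMT6-1 it lay above 1 for FOSL2 (5.89% of all genes kept) and below 1 for FOSL1 and EGR1 (7.14%). It was below 1 for no member with siPRMT6-2 (8.82%) or with both siRNAs (2.16%). These counts come from the values by which the members were chosen, and both comparisons use the same siNC library.

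The median log2 difference of the 10 members was −0.06 with siPRMT6-1 and 0.68 with siPRMT6-2, and the medians over all 6803 genes kept were 0.01 and 0.01. ATF3 passed the filter through the siPRMT6-2 library alone, and the other 9 members reached its minimum in every library. Summed over the 10 genes there were 471 counts with siPRMT6-1 and 730 with siPRMT6-2, against 546 with siNC. Relative to siNC the sum was 0.898 in siPRMT6-1 (0.792 to 1.02) and 1.56 in siPRMT6-2 (1.40 to 1.75), and the knockdown libraries differed 1.74 times (1.55 to 1.96). In a planned check FOSL1, the member with the most counts, was left out. The sum of the others was 0.994 (0.865 to 1.14) times siNC in siPRMT6-1 and 1.598 (1.41 to 1.82) in siPRMT6-2. Without FOSL2 and JUNB, a choice made after seeing the data, the sums were 0.830 (0.726 to 0.949) and 1.41 (1.25 to 1.596) times siNC. The siPRMT6-1 sum thus depended on which members were left out. The FOS family summed to 233 and 395 counts, against 264 in siNC, and the JUN family to 131 and 174, against 124.

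In the quasi-likelihood test of edgeR, which sets both knockdown libraries against siNC over all genes kept, 0 of 6803 genes passed an adjusted p of 0.05 (0% called), and so none of the 10 members did. At an unadjusted p under 0.05 it had 188 genes and DESeq2, which also called 0, had 13. The fitted log2 fold changes of both siRNAs together were 1.26 (SE 0.525) for FOSL2, 1.25 (SE 0.641) for JUNB, 0.67 (SE 0.497) for JUND, 0.50 (SE 0.463) for FOSB and 0.47 (SE 0.523) for FOS. Without the siPRMT6-2 library they were 0.83 for FOSL2, 0.46 for JUNB, 0.70 for JUND, 0.12 for FOSB and 0.11 for FOS, with no test. With both siRNAs they were 0.01 (SE 0.513) for FOSL1 and 0.19 (SE 0.525) for MYC, although each siRNA alone put these genes on opposite sides of siNC. The value of FOSL1 was below 0 with total counts as library sizes or without the filter. ATF3 had 0.56 (SE 0.888), JUN 0.11 (SE 0.455) and EGR1 −0.28 (SE 0.435).

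Shares within a family do not depend on the scaling between libraries, and they show how the make-up of the FOS counts differed. FOSL2 held 21.9% of the FOS family's counts with siPRMT6-1 (95% exact Clopper-Pearson interval 16.8 to 27.8%) and 19.7% with siPRMT6-2 (15.9 to 24.0%), against 11.4% with siNC (7.80 to 15.8%). FOSL1 held 29.2% with siPRMT6-1 (23.4 to 35.5%) and 38.7% with siPRMT6-2 (33.9 to 43.7%), against 47.0% with siNC (40.8 to 53.2%). For FOSL2 neither knockdown interval overlapped that of siNC, with siPRMT6-2 only narrowly (from 15.93%, against up to 15.82% in siNC). For FOSL1 the siPRMT6-1 interval did not overlap it. Shares in a family are tied to each other, and FOSL1 had 68 counts with siPRMT6-1, against 124 with siNC. How often such intervals lie apart over all genes was not counted. FOS and FOSB differed less: FOS held 13.3% and 11.1%, against 11.4% in siNC, and FOSB 35.6% and 30.4%, against 30.3%.

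Within the JUN family, JUNB held 16.03% of the counts with siPRMT6-1 (10.2 to 23.5%) and 27.0% with siPRMT6-2 (20.6 to 34.3%), against 12.9% with siNC (7.56 to 20.1%). JUN held 49.6% (40.8 to 58.5%) and 50.6% (42.9 to 58.2%), against 63.7% with siNC (54.6 to 72.2%). JUND held 34.4% (26.3 to 43.1%) and 22.4% (16.5 to 29.3%), against 23.4% with siNC (16.3 to 31.8%). JUNB with siPRMT6-2 was thus the only JUN family share whose interval lay apart from that of siNC, narrowly (from 20.57%, against up to 20.11%). The FOS family as a whole held 64.0% (58.8 to 68.9%) and 69.4% (65.5 to 73.2%) of the counts of both families, against 68.0% (63.1 to 72.7%) in siNC.

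**Figure D3:**
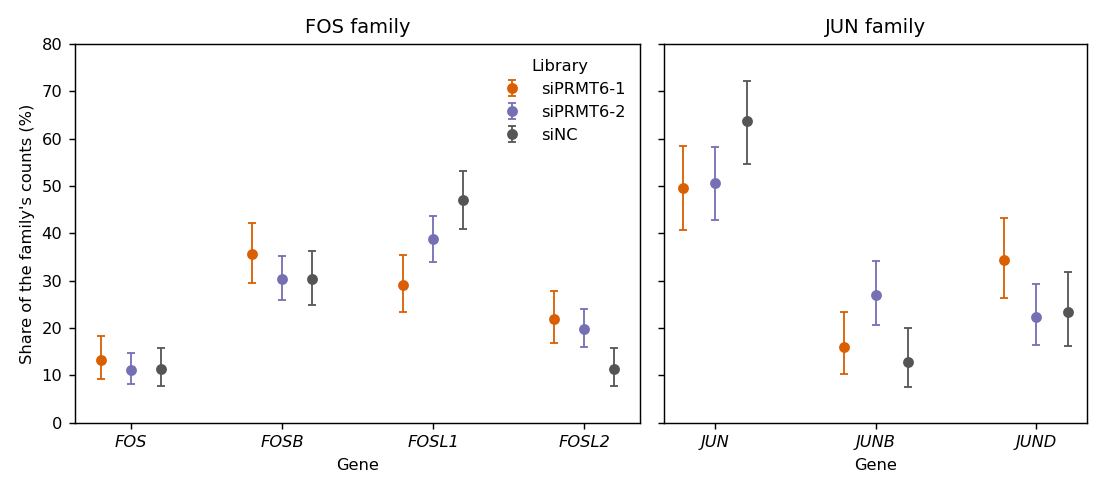
Share of each gene in the counts of the FOS family (left, 4 genes) and the JUN family (right, 3 genes), in percent (y axis), in each library, with 95% exact Clopper-Pearson intervals as bars. FOSL2 takes 21.9% and 19.7% of FOS family counts in the knockdown libraries, against 11.4% in siNC, and JUNB takes 27.0% of JUN family counts with siPRMT6-2, against 12.9% in siNC.

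Levels per exonic kilobase are levels of mRNA only if the transcripts' own strand was counted, which is uncertain. FOSL1 had the highest of the members in every library, 105 CPM per kb with siPRMT6-1 and 264 with siPRMT6-2, against 183 with siNC. ATF3 was the lowest, at 4.24 and 14.3, against 6.11 with siNC. In siNC the order below FOSL1 was EGR1 (86.0), JUN (61.6), FOSB (54.9), MYC (52.6), JUND (38.3), FOS (36.0), JUNB (22.8) and FOSL2 (19.5). FOSL1 was set apart from its next gene there, and all lower neighbours in the order had overlapping intervals. In siPRMT6-2 the intervals separated FOSL1 from FOSB, the next gene, and FOSL2, the 9th in the order, from ATF3. In siPRMT6-1 they separated only JUNB from ATF3. The median level of all genes kept was 15.8 CPM per kb in siNC, and of the members ATF3 alone was below it. FOSL1 there lay above 93.1% of the genes kept, EGR1 above 87.3% and FOSL2 above 57.0%.

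The rest of the pathway was read from 6 lists drawn up with earlier results of these data known, which held 57 different genes kept by the filter, and none of them was called by edgeR. With siPRMT6-1 the median log2 difference was below 0 in 5 of the 6 lists, and with siPRMT6-2 it was above 0 in all 6. Of the 57 genes, 0 were higher and 5 lower by a fold of 2 or more with siPRMT6-1, and 8 were higher and 2 lower with siPRMT6-2. The 8 include ZFP36, PLAUR and BATF2, which passed the filter only through siPRMT6-2, the library where they are high. Of all genes kept, 4.89% were higher and 4.38% lower with siPRMT6-1, and 8.16% and 5.38% with siPRMT6-2.

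Other immediate early genes included several above siNC with siPRMT6-2 and 1 below it. Of 25 symbols on the list, 23 were in the table and 15 were kept, with medians of −0.28 with siPRMT6-1 and 0.50 with siPRMT6-2. With siPRMT6-2 the interval lay above 1 for 7 of the 15 and below 1 for 1, where it did for 9.73% and 8.82% of all genes kept. With siPRMT6-1 it included 1 for all 15. The 4 genes with the most counts were PHLDA1, CTGF, TRIB1 and CYR61, of which CTGF and CYR61 encode secreted matrix proteins and are YAP targets. PHLDA1 had 127 and 119 counts, against 166 in siNC, and CYR61 had 53 and 45, against 53, and all 4 had intervals that included 1 with both siRNAs.

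The following genes were chosen after their values were seen. KLF4, a zinc finger factor of epithelial differentiation, had 8 and 56 counts in the knockdown libraries, against 13 in siNC, 5.04 times siNC with siPRMT6-2 (2.72 to 10.0). ZFP36, which encodes an RNA-binding protein that destabilises cytokine mRNAs, had 5 and 36 counts, against 6, or 7.01 times with siPRMT6-2 (2.93 to 20.4). IER5 had 8 and 22 counts, against 11, and KLF6, a relative of KLF4, had 27 and 37, against 20. MCL1, an anti-apoptotic gene of the BCL2 family, had 11 and 38 counts, against 23. IER3 went the other way, with 54 and 29 counts, against 59 in siNC, or 0.575 times with siPRMT6-2 (0.355 to 0.911). ZFP36 reached the filter's minimum in siPRMT6-2 alone, the library where it is high.

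Genes upstream of the members and in negative feedback on MAP kinases lay on both sides of siNC. DUSP1, a phosphatase that switches off MAP kinases, had 32 and 71 counts, against 46 in siNC, with ratios of 0.724 (0.446 to 1.16) and 1.80 (1.23 to 2.67). SPRY2, a feedback inhibitor of receptor signalling, had 37 and 34 counts, against 46. Of the 14 feedback genes 7 were kept, and their medians were −0.24 and 0.03. Of 22 genes of the MAP kinase cascade and of SRF activation in the table, 13 were kept, with medians of −0.21 and 0.43. MAP2K3, a p38 activator, had 28 and 53 counts, against 52 in siNC, or 0.560 times with siPRMT6-1 (0.341 to 0.904). The kinase genes MAP2K2 and MAP2K1 had intervals that included 1 with both siRNAs, and exons of MAP2K1 overlap a gene on the other strand. The genes farther from siNC with siPRMT6-2 were picked once their counts had been seen. MKL1, a coactivator of SRF that overlaps a gene on the other strand, had 11 and 30 counts, against 13, or 2.698 times siNC with siPRMT6-2 (1.37 to 5.63). ELK4, an SRF partner, had 16 and 32, against 18, or 2.08 times (1.13 to 3.93), while ELK3, a relative of ELK4, had 21 and 12, against 35, or 0.401 times (0.189 to 0.791). The phosphatase gene DUSP16 had 20 and 9, against 28, or 0.376 times (0.156 to 0.819). MAPK14, which encodes p38 alpha, was the 1 gene of these lists past a fold of 2 with siPRMT6-1, at a log2 difference of −1.08, and had 0.54 with siPRMT6-2.

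Among genes known as AP-1 targets, 11 of the 22 in the table were kept, with medians of −0.24 with siPRMT6-1 and 0.67 with siPRMT6-2. CCND1, which encodes cyclin D1, had the most counts, with 83 and 110, against 110 in siNC. CD44, a cell surface receptor of hyaluronan, had 45 and 71 counts, against 42, or 1.98 times with siPRMT6-2 (1.33 to 2.97). PLAU, which encodes urokinase and overlaps a gene on the other strand, had 31 and 58 counts, against 40. S100A2 had 11 and 14, against 30, or 0.382 (0.173 to 0.783) and 0.546 (0.267 to 1.06) times siNC. PLAUR, the urokinase receptor gene and picked once its counts had been seen, had 5 and 26 counts, against 5, or 6.08 times with siPRMT6-2 (2.30 to 20.3), and it passed the filter through that library alone. MMP1, the collagenase long used as an AP-1 readout, had at most 2 counts in a library, and CXCL8 was at 0 in all 3.

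Of 16 further AP-1 family and partner genes 7 were kept, with medians of −0.34 and 0.30. CREB1 had 32 and 32 counts in the knockdown libraries, against 30 in siNC, and ATF4 had 20 and 35, against 27. BATF2, a partner of JUN proteins that is also interferon-inducible and was picked once its counts had been seen, had 0 and 18 counts, against 1 in siNC. Its ratio with siPRMT6-2 was 21.0 (3.32 to 877), and it passed the filter through that library alone. Of the MYC partners and relatives 5 of 10 were kept, with medians of 0.20 and 0.16. MXD3, which overlaps a gene on the other strand, had 2655 and 2972 counts, against 3120. Heat shock genes, which respond to handling stress, summed to 917 and 814 counts, against 936 in siNC, or 1.02 (0.930 to 1.12) and 1.02 (0.924 to 1.12) times siNC. HSPB1 held 364 and 365 of these, against 374 in siNC, and single genes differed. Of the 8 kept, HSP90AA1 was at 1.33 (1.01 to 1.77) and HSPA8 at 0.813 (0.671 to 0.984) times siNC with siPRMT6-1. HSPD1, which overlaps a gene on the other strand, was at 0.537 (0.330 to 0.852) with siPRMT6-2.

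**Figure D4:**
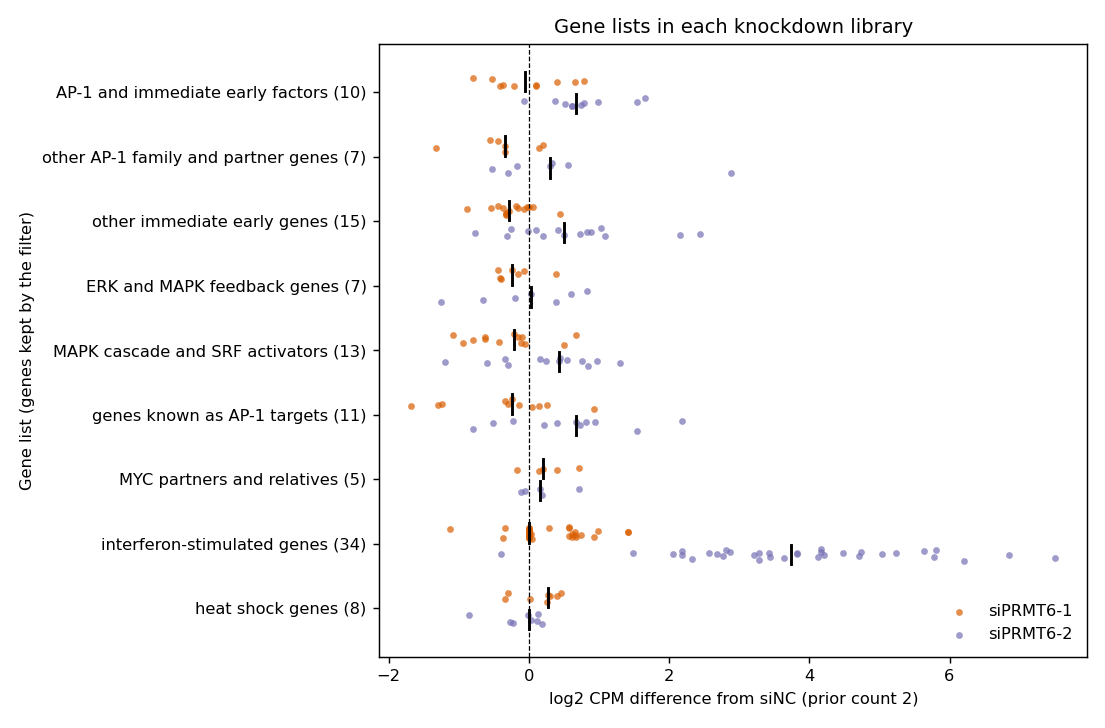
Each point is the log2 CPM difference from siNC (x axis, prior count 2) of a gene kept by the filter, for siPRMT6-1 (orange) and siPRMT6-2 (purple), by gene list (y axis, number of genes in brackets), and black bars are medians. The median of the 10 AP-1 and immediate early factors is −0.06 with siPRMT6-1 and 0.68 with siPRMT6-2, and the interferon-stimulated genes extend farthest to the right with siPRMT6-2.

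The genes most like a member in these libraries were found by the distance between their pairs of log2 ratios to siNC, 1 for each siRNA, over 1894 other genes with at least 100 counts. With only 2 ratios per gene that share a control, close matches are common. For FOSL2 the nearest were HYI, NR1H3 and MOV10, at distances of 0.19, 0.27 and 0.29, and exons of HYI and NR1H3 overlap a gene on the other strand. MOV10, an RNA helicase gene, had 54 and 68 counts in the knockdown libraries, against 32 in siNC. For FOSL1 the nearest were HEATR1, RCN1 and NUCB1, and RCN1, a calcium-binding protein of the endoplasmic reticulum, had 100 and 239 counts, against 186. For MYC the nearest was DUSP5, a nuclear ERK phosphatase, at a distance of 0.01, with 24 and 45 counts, against 34. For FOS and FOSB the 2 nearest were the same genes, KPNA2 and LRRC14. For EGR1 they included HSPA9, for JUN HSP90B1 and for JUND HBP1, with distances of 0.04, 0.03 and 0.03. For the 10 members summed, BHLHE40-AS1, HIST1H3B and TSR1 were nearest. Of the genes named in this comparison, HEATR1, NUCB1, LRRC14, HBP1, BHLHE40-AS1 and TSR1 also have exons that overlap a gene on the other strand.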

How the data were processed

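RNA of 3 HEC1B libraries was analysed from the whole-number counts per gene that the authors deposited. The submitters' processing notes name STAR 2.7.8a, featureCounts 2.0.10 and the build hg38. Per the file headers, featureCounts was 2.0.1, counted pairs with strand setting 1 and added a read in overlapping genes to each. The aligned files' names mark UMI-based removal of duplicates, and the sources used here do not give its method. Library columns were matched through the descriptions in the labels, which call the siRNAs si2 and si3. Gene length in exonic bases, from the deposited table, gave levels per kilobase.

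Knockdown was tested against siNC with edgeR (version 4.0.16, R 4.3.3) by quasi-likelihood, with TMM scaling, Benjamini-Hochberg adjustment, and filterByExpr (minimum count 10, minimum total 15), which kept 6803 genes. It has 1 residual degree of freedom, the gap between the siRNAs, and siNC is assumed to vary alike, so a p-value reflects no more than how these libraries vary. An SE is the log2 fold change divided by the root of F. DESeq2 1.42.0 was an alternative. Differences per siRNA use a prior count of 2. Intervals are exact at 95% and cover counting error only.

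The members and lists were chosen with earlier results of these data known. All 10 members are named. From each other list, the 4 genes with the most counts were to be named. Any gene past a fold of 2 with both siRNAs and with intervals that leave out 1 was to be named too, and no list held one. The interferon-stimulated list is given only as a sum. A gene that this rule picks from the MAP kinase list is not reported here. Likeness used log2 ratios with 0.5 counts added. Promoters come from RefSeq.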

Additional observations from a re-analysis of the deposited data

How the results depend on the processing

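The count of genes called depended on the tool. It was 0 with edgeR's quasi-likelihood test under other scalings, without the filter and without genes overlapping exons on the other strand, and 0 with DESeq2. It was 32 with the older edgeR quasi-likelihood fit and 31 with its likelihood ratio test, and none of these was a member. The cause was not tested. Medians, sums and counts past a fold of 2 moved by less than their spread in every scaling, filter and prior count tried. With siPRMT6-2, 2 members passed a fold of 2, or 3 with a prior count of 0.5. Of the 10 members' fitted fold changes, recomputed 49 times in all, 45 stayed within 1 SE. The median fold change over both siRNAs was 0.49. It was 0.71 without the siPRMT6-1 library and 0.11 without the siPRMT6-2 library, values that have no test. The 0.11 leaves out ATF3, which did not pass the filter without siPRMT6-2. Over all 10 members the median log2 difference of siPRMT6-1 from siNC was −0.06, so the sign depended on the genes included. Without siPRMT6-2 the fold changes of FOSL1 (−0.80), MYC (−0.43) and JUN (−0.22) were below 0, and over both siRNAs they were above it. No member's exons overlap the other strand's in the table, so leaving such members out removed none. No paired analysis was possible because the groups share fewer than 2 replicate numbers. At this depth ATF3, with at most 12 counts, allows no statement of direction.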
